A study of Mus musculus with 16 samples.

Results

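Adhesion G protein-coupled receptors are cell surface proteins with a long extracellular part that is cut next to the membrane, so that both fragments stay attached to each other. Contact with a ligand on a neighbouring cell or in the matrix uncovers a stretch at the cut that binds the receptor's own transmembrane domain and passes the signal to G proteins. In bone marrow the family is known for Adgrg1 (GPR56), which marks stem cells, and for Adgre1 (F4/80), the classical macrophage antigen. The receptors were chosen by gene symbol, 10 out of 54347 genes in the count table, and 9 of them are described here. They belong to a family list of which 29 genes are used. The choice was made with earlier results of these data known, because Adgrl4 is abundant and lower in mutant LSKs. For this reason the genotype comparison in LSKs, and the level of Adgrl4 between cell types, are given as descriptions without a test. Where calls from these comparisons are counted, no p-value is printed and nothing is read from the counts.

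RNA was measured in LSKs (marrow cells sorted as Lin- Sca-1+ c-Kit+, among them stem cells and multipotent progenitors) and in GMPs (Lin-Sca-1-c-Kit+CD16/32+ granulocyte-monocyte progenitors) of 2 genotypes. UREΔ mice (genotype URE in the labels) carry a deletion of the upstream regulatory element, the main enhancer of the PU.1 gene Spi1, in all their cells. WT mice were the littermate controls, and all animals were on a C57BL/6 background and 8 to 12 weeks old, before any leukemia. Each of the 4 groups had 4 libraries, each from another mouse within the group, 16 libraries in all, with total counts between 20028302 and 29128858. Whether LSK and GMP libraries with the same replicate number come from 1 mouse is not stated in the sources used here. The low-input libraries started from at most 10 ng of RNA and do not keep the strand.

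Spi1 itself was at 125 ± 40.0 CPM (counts scaled by library size to a common total, SD, n = 4) in WT LSKs and at 3.05 ± 1.41 CPM (SD, n = 4) in UREΔ LSKs. In GMPs it was at 139 ± 38.1 and 20.8 ± 5.59 CPM (SD, n = 4 each). The genotypes did not overlap in either cell type. The markers of the sort gates followed the labels, since the 6 genes of the GMP gate list summed to 52909 to 152000 CPM in GMPs and to 1933 to 2912 CPM in LSKs. Within GMPs these sums did not overlap between the genotypes, at 52909 to 71402 CPM in WT and 71712 to 152000 CPM in UREΔ. Of the 6 genes, Fcgr3 was called higher in UREΔ GMPs, where 4.67% of all genes tested were called higher. The part of these markers in the GMP values below was not tested. The 7 stem and multipotent progenitor genes summed to 2317 to 5256 CPM in LSKs and 863 to 2632 CPM in GMPs. These ranges overlap over both genotypes together, while within each genotype the LSK sums lay above the GMP sums. These are bulk samples, in which fewer cells of a type and less RNA per cell cannot be told apart.

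Promoter sequences are shown for the 2 abundant members on which the genotype difference turned. Adgrl4 is a member with lower, and Adgrg3 a member with higher mRNA in both mutant cell types, without overlap between the genotypes, and for each of them the 250 bases before the RefSeq start (GRCm38.p6, plus strand) are given here. Capitals mark GAGGAAG, a core of the PU.1 motif, and TGTGGT, a core of the RUNX1 motif, was searched as well, both on either strand (CTTCCTC and ACCACA on the reverse strand), and neither motif overlaps the other.
Adgrl4, chr3:151437632-151437881: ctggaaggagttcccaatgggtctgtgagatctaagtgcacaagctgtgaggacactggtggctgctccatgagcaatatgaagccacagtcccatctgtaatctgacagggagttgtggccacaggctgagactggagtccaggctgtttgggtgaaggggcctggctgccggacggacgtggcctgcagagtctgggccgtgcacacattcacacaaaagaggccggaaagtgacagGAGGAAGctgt
Adgrg3, chr8:95017442-95017691: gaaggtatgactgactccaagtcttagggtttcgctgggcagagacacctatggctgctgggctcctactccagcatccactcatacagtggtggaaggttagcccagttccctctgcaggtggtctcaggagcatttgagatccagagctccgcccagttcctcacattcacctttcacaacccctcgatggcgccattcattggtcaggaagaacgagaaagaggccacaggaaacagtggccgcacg

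RefSeq windows were matched for 7 of the 9 members, in 8 windows. The GAGGAAG letters lay 11 bases before the start of Adgrl4 and, on the reverse strand, 85 bases before that of Adgrl1. They occur in 10.61% of all 32851 windows of the same length. TGTGGT was found in 0 of the members' windows and occurs in 14.05% of all windows. The Adgrg3 window held neither. These matches describe letters in a window and say nothing on binding.

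Adgrg1 and Adgrg3 lie side by side on the plus strand of chromosome 8 of GRCm38. Adgrg1 (94974751 to 95014217) is followed after 3474 bases by Adgrg3 (95017692 to 95045250), with 0 coding genes between them. Adgrl4 lies on chromosome 3 from 151437887 to 151545086.

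Adgrg1, Adgrl4 and Adgrg3 held most of the family's transcripts. Levels of different genes are compared as CPM per kb of exon. The length is that of all annotated exons of a gene together, so this corrects only roughly for transcript length. In WT LSKs, Adgrg1 was at 337 ± 229 and Adgrl4 at 256 ± 36.9 CPM per kb (SD, n = 4 each), and these neighbours in the order did not differ beyond the spread of Adgrg1. Adgrg3 came next with 15.8 ± 3.69 CPM per kb, then Adgre5 with 2.73 ± 1.76 and Adgre1 with 2.06 ± 0.335 CPM per kb, whose spreads overlap. The lowest in WT LSKs were Adgrl1 (0.598 ± 0.149 CPM per kb) and Adgrg6 (0.0210 ± 0.0162 CPM per kb). In UREΔ LSKs the second place was taken by Adgrg3 with 39.6 ± 13.4 CPM per kb, ahead of Adgrl4 with 24.2 ± 4.11 CPM per kb, with spreads that still overlap. The same exchange was seen in GMPs, where Adgrl4 was at 80.2 ± 12.1 and Adgrg3 at 27.7 ± 5.52 CPM per kb in WT, against 16.6 ± 5.53 and 59.0 ± 14.6 CPM per kb in UREΔ (SD, n = 4 each), here without overlap.

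As a share of the family's CPM per kb, Adgrl4 made up 45.7% in WT LSKs (31.1% to 64.1% over the 4 libraries) and 7.09% in UREΔ LSKs (2.85% to 15.2%). In GMPs its mean share was 38.5% in WT and 7.19% in UREΔ. The mean share of Adgrg1 was 48.9% and 80.0% in WT and UREΔ LSKs, and 40.6% and 59.9% in WT and UREΔ GMPs. Adgrg3 held 2.89% and 9.34% in LSKs and 13.2% and 24.8% in GMPs, in the same order. A share depends on the other members, so the shares add no test to the values of each gene.

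**Figure D1:**
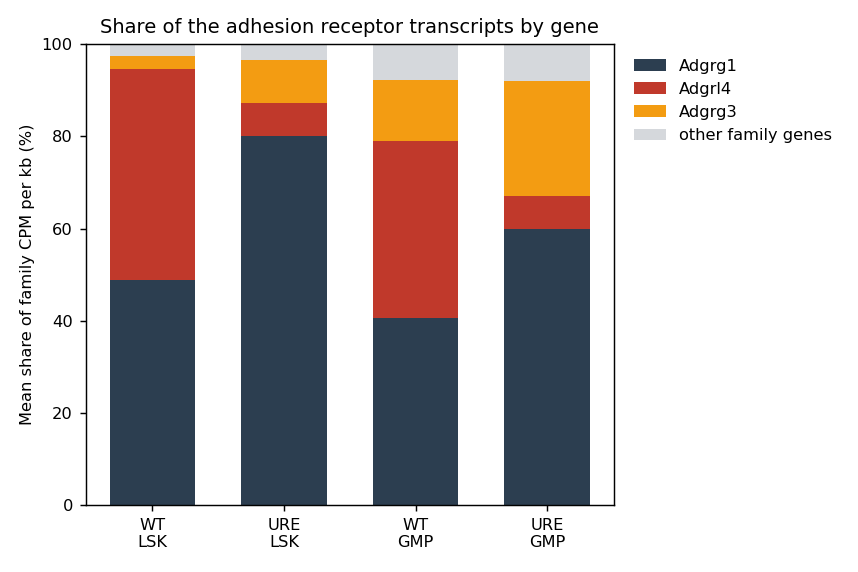
Mean share of the family's CPM per kb of exon (vertical axis, percent, 0 to 100) held by Adgrg1, Adgrl4, Adgrg3 and the other genes of the family list, in the 4 groups (means of 4 libraries). The Adgrl4 segment is 45.7% in WT LSKs and 7.09% in UREΔ LSKs.

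Adgrl4 (ELTD1, ENSMUSG00000039167) belongs to the latrophilin subfamily and is best known from blood vessels, where it takes part in vessel growth. In WT LSKs its level in replicates 1 to 4 was 1345, 1107, 969 and 1276 CPM. In UREΔ LSKs it was 100.1, 139, 106 and 98.3 CPM. Every mutant library lay below every WT library, and the log2 fold change was −3.44 (standard error, SE, 0.20), a 10.9-fold lower level. This is the difference by which the set was chosen. Between same-numbered libraries the mutant level was 0.0744 to 0.125 of the WT level. Within replicates 1 and 4 the log2 fold change was −3.78, and within replicates 2 and 3 it was −3.10.

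The reason given for that choice names LSKs only, and Adgrl4 fell in GMPs as well. The members were chosen with earlier results of these data known, and whether same-numbered LSK and GMP libraries share a mouse is not stated. The GMP value may therefore not be independent of the choice. WT GMPs had 417, 349, 298 and 407 CPM in replicates 1 to 4. UREΔ GMPs had 74.5, 101, 42.0 and 87.6 CPM. The groups were far apart, with a log2 fold change of −2.25 (SE 0.26, adjusted p = 0.00122, quasi-likelihood test of edgeR, BH adjustment after Benjamini and Hochberg across every gene tested), a 4.77-fold lower level. The mutant library had the lower value in 4 of 4 pairs. Whether the larger LSK value differs from the GMP value was not tested, since the LSK difference chose the gene. The call was lost within replicates 2 and 3 alone, where the log2 fold change was −2.15 (adjusted p = 0.0875, same test, 2 libraries against 2).

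From LSKs to GMPs, the level of Adgrl4 in WT was 3.19-fold lower, a log2 difference of −1.67 (SE 0.17) given as a description. The ratio of GMP to LSK was 0.310, 0.315, 0.308 and 0.319 for numbers 1 to 4, so all 4 numbers gave nearly the same value. In UREΔ mice the same ratio was 0.744, 0.730, 0.395 and 0.891. The groups ordered as WT LSKs, WT GMPs, UREΔ LSKs and UREΔ GMPs by mean level, and of these neighbours the 2 mutant groups overlapped while the others did not.

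The endothelial marker list, checked because Adgrl4 is known from vessels, was near the floor. Its 7 genes together summed to 4.14 to 9.58 CPM in WT LSKs and 4.21 to 8.54 CPM in UREΔ LSKs, while Adgrl4 alone stood at 1174 ± 169 CPM (SD, n = 4) in WT LSKs. In GMPs 1 of its 2 tested genes (Flt1) was called higher, beside 4.67% of all genes tested. The GMP sums were 9.49 to 13.5 CPM in WT and 17.3 to 33.0 CPM in UREΔ, opposite in direction to Adgrl4. Among the stem and multipotent progenitor markers, Cd34 and Flt3 were called lower in UREΔ GMPs and the other 5 of 7 were not called. Of all genes tested in GMPs, 3.63% were called lower. The sums of this list were 2824 to 5256 CPM in WT and 2317 to 3313 CPM in UREΔ LSKs, and 1245 to 2632 and 863 to 1477 CPM in GMPs, overlapping between the genotypes in both. Their part in the Adgrl4 values was not tested.

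**Figure D2:**
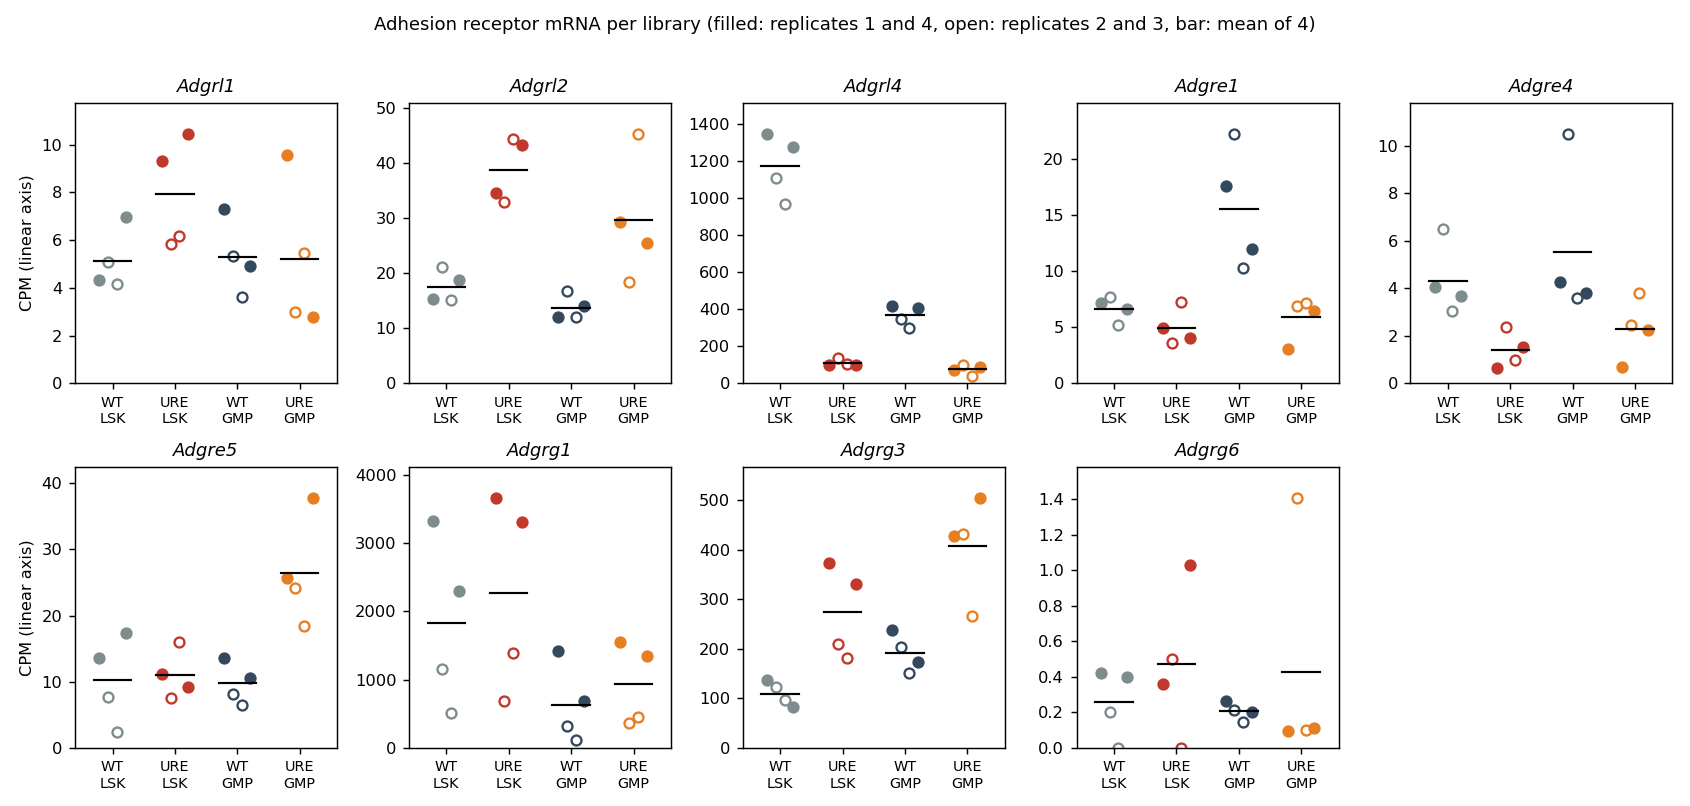
CPM (vertical axes, linear, from 0, a scale for each gene) of the 9 receptors in the 4 groups, with filled points for replicates 1 and 4, open points for replicates 2 and 3 and a bar for the mean of 4 libraries. Adgrl4 is at 969 CPM or more in every WT LSK library and at 139 CPM or less in every UREΔ LSK library.

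Over the 9 receptors, filtering on low counts left 9 for the comparison of genotypes in LSKs and 8 in GMPs. In LSKs 2 members were called higher (Adgrl2 and Adgrg3) and 1 lower (Adgrl4), where 2.38% of 15154 genes tested were called higher and 3.76% lower. Genes were called at an adjusted p below 0.05 with more than a 1.5-fold change. With the replicate number as a block, and by DESeq2, Adgre4 joined the lower members, which made 2 higher and 2 lower. Since this comparison was used for the choice, nothing is read from these counts. In GMPs, Adgrl2, Adgre5 and Adgrg3 rose and Adgrl4 and Adgre1 fell, which makes 3 higher and 2 lower of 8 tested. The background in GMPs was 4.67% of 13829 genes called higher and 3.63% lower. Since the members were chosen with earlier results of these data known, the GMP counts may not be independent of the choice either. Adgrl1, Adgre4 and Adgrg1 did not pass. The median log2 fold change of the 8 members was 0.29, against 0.01 over all genes tested, and the members went in both directions.

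**Figure D3:**
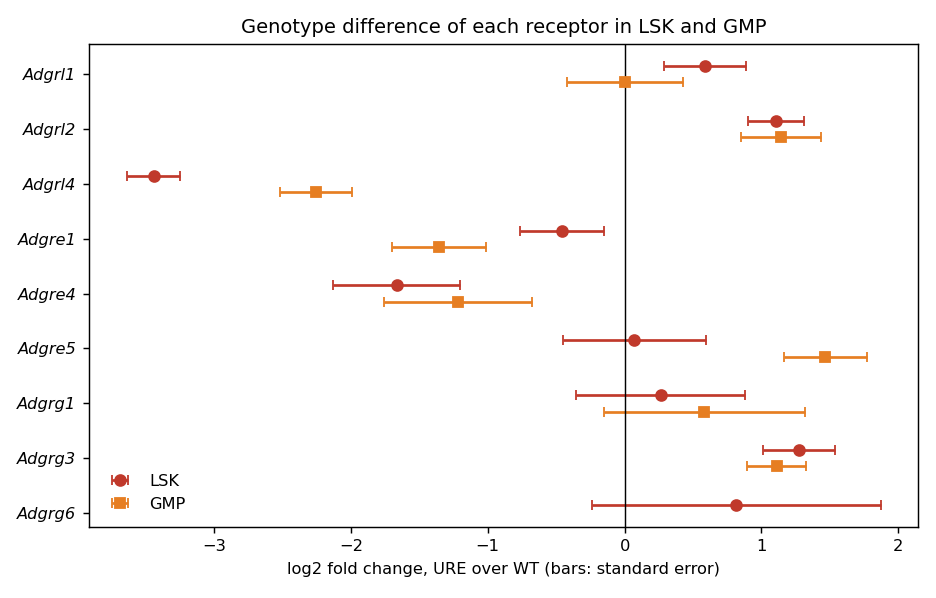
Log2 fold change of UREΔ over WT (horizontal axis) with its standard error for each receptor that passed the filter, in LSKs (circles) and GMPs (squares). Adgrl4 lies farthest to the left in both, at −3.44 and −2.25, and Adgrl2 and Adgrg3 lie between 1.11 and 1.28.

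Adgrg3 (GPR97, ENSMUSG00000060470), a receptor of granulocytes, was the abundant member that rose. In WT GMPs it was at 238, 204, 150.0 and 174 CPM in replicates 1 to 4. In UREΔ GMPs it was at 428, 431, 266 and 504 CPM. The lowest mutant library was above the highest WT library, with a log2 fold change of 1.11 (SE 0.21, adjusted p = 0.0125, edgeR, BH-adjusted) and a higher mutant value in 4 of 4 pairs. With replicates 2 and 3 alone, the log2 fold change of 1.02 was not called (adjusted p = 0.202, same test). In LSKs, where no test applies, the level was 137, 123, 95.6 and 81.3 CPM in WT and 372, 209, 181 and 331 CPM in UREΔ, again without overlap. The LSK log2 fold change was 1.28 (SE 0.26), with 1.63 within replicates 1 and 4 and 0.82 within replicates 2 and 3. The list of neutrophil markers had higher sums in UREΔ. Its 6 genes summed to 127 to 203 CPM in WT GMPs and 352 to 1053 CPM in UREΔ GMPs. Ngp was the 1 gene of 6 called (higher), where 4.67% of all genes tested were called higher. In LSKs the sums were 36.3 to 178 CPM in WT and 184 to 360.3 CPM in UREΔ. Their part in the Adgrg3 result was not tested.

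Adgrg1 (GPR56, ENSMUSG00000031785), the neighbour of Adgrg3 and the member with the highest mean per kb in all 4 groups, separated the libraries by replicate number, while the genotypes overlapped. Its level in replicates 1 to 4 was 3327, 1158, 516 and 2304 CPM in WT LSKs and 3663, 689, 1395 and 3309 CPM in UREΔ LSKs. In GMPs it was 1413, 318, 106 and 688 CPM in WT and 1550, 364, 456 and 1350 CPM in UREΔ. Replicates 1 and 4 were above replicates 2 and 3 in every group, by 3.36-fold, 3.35-fold, 4.95-fold and 3.54-fold for the means in WT LSKs, UREΔ LSKs, WT GMPs and UREΔ GMPs. The labels do not say what the numbers stand for. The genotype log2 fold change in GMPs was 0.58 (SE 0.73, adjusted p = 0.750, edgeR, BH-adjusted), within the spread between libraries, although the mutant was higher in 4 of 4 pairs. It was 1.34 without WT GMP replicate 1 (adjusted p = 0.307, edgeR, BH-adjusted) and 0.21 to 0.82 without each of the other libraries in turn. The ratio of mutant to WT in these pairs was 1.10, 1.14, 4.29 and 1.96. Blocking on the replicate number, the SE shrank to 0.31 and the log2 fold change of 0.86 still did not pass (adjusted p = 0.0935, same test). In LSKs the value was 0.26 (SE 0.62), with a ratio from 0.595 to 2.70 between same-numbered libraries.

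**Figure D4:**
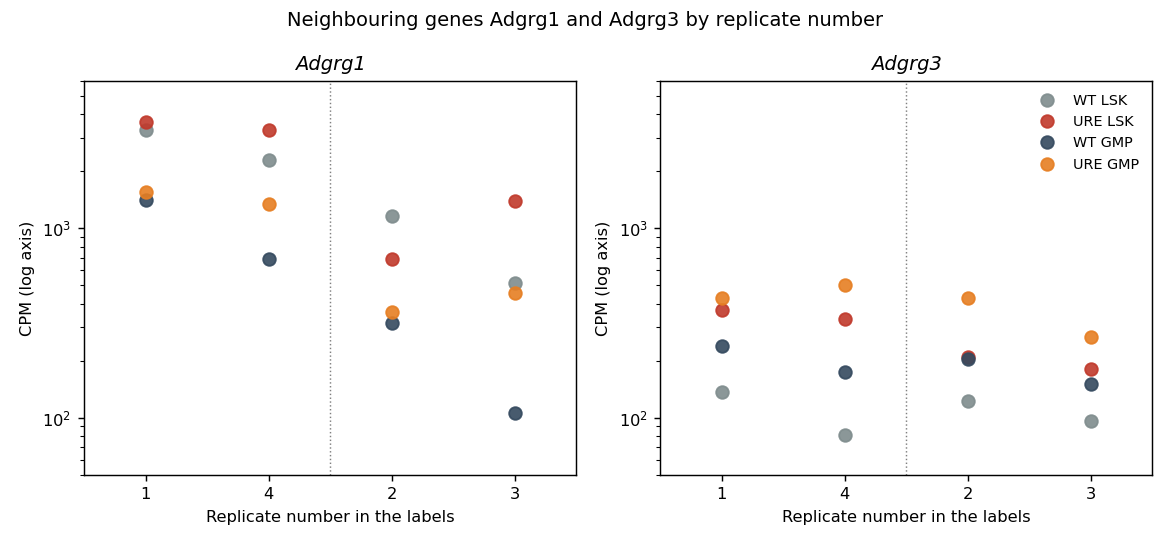
CPM (vertical axes, logarithmic) of the neighbouring genes Adgrg1 (left) and Adgrg3 (right) by the replicate number of the labels (horizontal axis, ordered 1, 4, 2, 3), coloured by group. In every group Adgrg1 is higher in replicates 1 and 4 than in replicates 2 and 3, and Adgrg3 has this order in UREΔ LSKs, with overlap of the 2 sets in the other 3 groups.

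The genes with the pattern most like Adgrg1 over the 16 libraries, by Pearson correlation of log2 CPM among 9072 genes whose mean log2 CPM reached 3, were Khnyn (r = 0.986), Kit (0.983), Stk10 (0.983), Paqr7 (0.980) and Rhbdd2 (0.980). For Adgrl4 they were Ncoa7 (0.944), Ndrg1 (0.943), Ebi3 (0.940), Lsp1 (0.938) and Cd34 (0.929), and for Adgre5 Crat (0.879), Coasy (0.877), Coq8b (0.862) and Plod1 (0.859). These values are descriptions over libraries that share genotypes, cell types and replicate numbers. Between the neighbours Adgrg1 and Adgrg3 the correlation over the 16 libraries was 0.12, and between Adgrl4 and Adgrg3 it was −0.84.

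Adgre5 (CD97, ENSMUSG00000002885), which is found on most leukocytes and binds Cd55 and Thy1, had genotypes that did not overlap in GMPs and overlapped in LSKs. In WT GMPs it was at 13.6, 8.15, 6.53 and 10.6 CPM in replicates 1 to 4. In UREΔ GMPs it was at 25.6, 24.2, 18.3 and 37.8 CPM. The groups did not overlap, and the log2 fold change was 1.47 (SE 0.30, adjusted p = 0.0166, edgeR, BH-adjusted), or 2.76-fold, with a higher mutant value in 4 of 4 pairs. The call was lost without UREΔ GMP replicate 4 (log2 fold change 1.24, adjusted p = 0.0524), without WT GMP replicate 2 (1.37, adjusted p = 0.0573), in the joint fit of all 16 libraries (1.48, adjusted p = 0.0575) and with replicates 2 and 3 alone (1.57, adjusted p = 0.131), all by the same test.
In LSKs it was at 13.6, 7.69, 2.39 and 17.4 CPM in WT and 11.2, 7.53, 16.04 and 9.17 CPM in UREΔ. These ranges overlap, with a log2 fold change of 0.07 (SE 0.52), −0.67 within replicates 1 and 4 and 1.22 within replicates 2 and 3. The difference between the genotype effects in GMPs and LSKs was 1.40 on the log2 scale and was not tested. Adgre5 shares 926 exonic bases with Ddx39 on the opposite strand and with Mir1668, and in unstranded libraries such reads cannot be told apart. Ddx39 was more abundant, with 396 ± 37.4 CPM (SD, n = 4) in WT and 277 ± 28.2 CPM (SD, n = 4) in UREΔ GMPs. Its log2 fold change of −0.50 (SE 0.14, adjusted p = 0.0650, edgeR, BH-adjusted) had the opposite sign. The part of shared reads in the Adgre5 values was not tested.

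Adgrl2 (ENSMUSG00000028184), a latrophilin that binds teneurins and FLRT proteins at cell contacts, rose in GMPs from 12.1, 16.8, 11.997 and 14.01 CPM in WT replicates 1 to 4 to 29.3, 18.5, 45.4 and 25.5 CPM in UREΔ. The log2 fold change was 1.14 (SE 0.29, adjusted p = 0.0424, edgeR, BH-adjusted), higher in 4 of 4 pairs and without overlap. The margin was small, since the call was lost without any 1 of 7 of the 8 libraries (adjusted p between 0.0712 and 0.100, log2 fold change 0.82 to 1.22, same test). Only without UREΔ GMP replicate 2, the lowest of the mutant libraries, was it kept. In LSKs the level was 15.3, 21.1, 15.2 and 18.8 CPM in WT and 34.6, 33.0, 44.4 and 43.4 CPM in UREΔ, a log2 fold change of 1.11 (SE 0.20) with no overlap. Adgrl2 shares 202 exonic bases with Gm43573 on the opposite strand.

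Adgrl1 (ENSMUSG00000013033), the other latrophilin of this kind, showed no genotype difference beyond the spread in GMPs, with 5.29 ± 1.52 CPM in WT and 5.22 ± 3.15 CPM in UREΔ (SD, n = 4 each, log2 fold change 0.00, SE 0.43, adjusted p = 0.997, edgeR, BH-adjusted). Its sign changed between settings. In LSKs it was at 5.14 ± 1.28 and 7.94 ± 2.29 CPM (SD, n = 4 each), higher in the mutant in 4 of 4 pairs, with overlapping ranges. It shares 1343 exonic bases with 3 opposite-strand genes.

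Adgre1 and Adgre4 are receptors of monocytes, macrophages and eosinophils. Adgre1 (F4/80, ENSMUSG00000004730) fell in mutant GMPs, from 17.6, 22.2, 10.3 and 11.9 CPM in WT replicates 1 to 4 to 3.08, 6.87, 7.19 and 6.47 CPM in UREΔ. The groups did not overlap, and the log2 fold change was −1.35 (SE 0.34, adjusted p = 0.0417, edgeR, BH-adjusted), lower in 4 of 4 pairs. This call too was lost without any 1 of 7 of the 8 libraries, all but WT GMP replicate 3, with an adjusted p of 0.0551 to 0.117 and a log2 fold change between −1.48 and −1.14 (same test). With replicates 1 and 4 alone the log2 fold change was −1.63 (adjusted p = 0.0526) and with replicates 2 and 3 alone −1.15 (adjusted p = 0.370, same test).
In LSKs it was at 6.66 ± 1.09 CPM in WT and 4.96 ± 1.61 CPM in UREΔ (SD, n = 4 each), with overlapping ranges and a log2 fold change of −0.46 (SE 0.31).

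Adgre4 (ENSMUSG00000032915), also called FIRE, was at 4.26, 10.5, 3.58 and 3.83 CPM in WT GMPs and 0.674, 2.46, 3.82 and 2.25 CPM in UREΔ GMPs. The ranges overlapped, and the log2 fold change of −1.22 (SE 0.54) did not pass (adjusted p = 0.245, edgeR, BH-adjusted). Without WT GMP replicate 2, the highest library, it was −0.75 (adjusted p = 0.542, same test). In LSKs the level was 4.07, 6.48, 3.06 and 3.69 CPM in WT and 0.641, 2.38, 0.9998 and 1.54 CPM in UREΔ, with no overlap and a log2 fold change of −1.66 (SE 0.46).

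Beside Adgre1 and Adgre4, marker lists of monocytes, eosinophils and macrophages were compared. In GMPs the 7 monocyte genes summed to 1622 to 2272 CPM in WT and 387 to 1820 CPM in UREΔ, and 4 of 7 were called lower (Ccr2, Csf1r, Irf8 and Ly86). The 8 eosinophil genes summed to 617 to 1317 CPM in WT and 84.2 to 313 CPM in UREΔ. Of these 8 genes, Ear1, Epx, Prg2 and Prg3 were called lower. Il5ra was at 0 in all UREΔ GMP libraries and passed the filter through the WT libraries alone, so no test is given for it. The 8 macrophage genes had sums that overlapped between the genotypes, with 76.8 to 174 CPM in WT, 135 to 368 CPM in UREΔ and 0 of 8 called by edgeR, where 1 gene (Vcam1) had an unadjusted p under 0.05 and was called by DESeq2. In LSKs the monocyte sums were 61.2 to 119 CPM in WT and 13.8 to 32.7 CPM in UREΔ, while the eosinophil sums (15.3 to 21.5 and 7.66 to 30.1 CPM) and the macrophage sums (71.4 to 165 and 60.2 to 113 CPM) overlapped between the genotypes. Their part in the Adgre1 and Adgre4 values was not tested.

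Adgrg6 (GPR126, ENSMUSG00000039116), which is known from the myelination of nerves, was barely detected. It had 0 to 28 counts in any library, and in GMPs the 2 genotypes overlapped (exact two-sided permutation test, p = 1.0). The 28 counts came from UREΔ GMP replicate 2, and the other 3 libraries of that group had 2 each. Adgrg6 shares 441 exonic bases with Gm46212 on the opposite strand.

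The comparison of GMPs with LSKs asked how the receptors change with maturation in each genotype. It shares its libraries with the comparisons above, so its values stand beside them and are no separate support. In WT, 8 members passed the filter on low counts, Adgrl4 among them. Adgre1 and Adgrg3 were called higher in GMPs, where the background was 11.5% of 14767 genes, and 15.8% of these genes were called lower. Adgrl4, which is described without a test, was lower. Adgre1 was 2.31-fold higher (log2 difference 1.21, SE 0.28, adjusted p = 0.0109, edgeR, BH-adjusted), and Adgrg3 1.75-fold higher (0.81, SE 0.21, adjusted p = 0.0180, same test), both in 4 of 4 pairs. The Adgrg3 call was lost without WT LSK replicate 4 (0.70, adjusted p = 0.0510, same test) and within replicates 1 and 4 (0.94, adjusted p = 0.0673) or 2 and 3 (0.76, adjusted p = 0.0671). The Adgre1 call was also lost within replicates 2 and 3 (1.39, adjusted p = 0.0910, same test).
In UREΔ, 8 members, again with Adgrl4, passed the filter. Adgre5 alone was called, 2.41-fold higher in GMPs (log2 difference 1.27, SE 0.32, adjusted p = 0.0191, edgeR, BH-adjusted). There the background was 9.20% of 14395 genes called higher and 12.6% lower. The call was lost without UREΔ GMP replicate 4 (1.06, adjusted p = 0.0593) or without UREΔ LSK replicate 4 (1.23, adjusted p = 0.0506, same test). Adgre1, which was higher in WT GMPs than LSKs, had a log2 difference of 0.26 in UREΔ (SE 0.38, adjusted p = 0.673, same test). Whether this differs from the WT value was not tested.

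For Adgrg1 the maturation difference depended on the pairing. Without it, the log2 difference of −1.53 in WT (SE 0.77) and of −1.28 in UREΔ (SE 0.61) did not pass (adjusted p = 0.173 and 0.171, edgeR, BH-adjusted). Leaving out 1 library at a time gave −2.25 to −1.08 in WT and −1.62 to −0.92 in UREΔ, and none of these passed. GMPs were lower in 4 of 4 pairs of both genotypes, with a ratio of 0.206 to 0.425 in WT and 0.327 to 0.528 in UREΔ. When the fit took the number as a block, the values were −1.78 (SE 0.16, adjusted p = 5.5e-05) and −1.26 (SE 0.16, adjusted p = 0.000577), and Adgrg1 was called lower in both. The block also brought Adgrg3 past the threshold in UREΔ (0.61, adjusted p = 0.0170, same test).

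Among the other 20 genes of the family list, 8 passed the filter on low counts in LSKs and 7 in GMPs. In LSKs 0 were called higher, from which nothing is read either. Adgrf3 was at 2.53 ± 1.41 CPM in WT and 0.00837 ± 0.0167 CPM in UREΔ LSKs (SD, n = 4 each). It passed the filter through the WT libraries alone, so no test is given for it. In GMPs 0 of the 7 were called in either direction by edgeR or DESeq2, and 2 (by edgeR) or 3 (by DESeq2) had an unadjusted p under 0.05. By edgeR, 4.67% of all genes tested in GMPs were called higher and 3.63% lower. The 2 with the highest CPM averaged over all 16 libraries, a rank that does not correct for length and rests for Celsr3 on GMPs, were Celsr3 and Celsr1, cadherin-like members known from planar cell polarity and the wiring of neurons. Celsr3 was at 6.63 ± 6.04 CPM in WT and 28.6 ± 28.0 CPM in UREΔ GMPs (SD, n = 4 each, log2 fold change 2.15, SE 1.05, adjusted p = 0.295, edgeR, BH-adjusted), with the mutant higher in 4 of 4 pairs. In LSKs its mean was 0.140 CPM in WT and 0.250 CPM in UREΔ. Celsr1 was at 8.23 ± 6.71 and 16.7 ± 6.25 CPM in WT and UREΔ GMPs (SD, n = 4 each, log2 fold change 1.04, SE 0.59, adjusted p = 0.381, same test). Like Adgrg1, Celsr1 was higher in replicates 1 and 4 than in replicates 2 and 3 in every group, and it was called with the replicate block (1.34, adjusted p = 0.0217, same test).

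Of 16 known ligands and partners, 7 were tested in GMPs, with 1 called higher and 0 lower, beside 4.67% and 3.63% of all genes tested. The gene called was Cd9, a tetraspanin, at 94.8 ± 17.8 CPM in WT and 204 ± 11.2 CPM in UREΔ GMPs (SD, n = 4 each, log2 fold change 1.13, SE 0.16, adjusted p = 0.00268, edgeR, BH-adjusted). Cd55, the ligand of Adgre5, had a log2 fold change of 0.62 in GMPs (SE 0.40, adjusted p = 0.455, same test). In LSKs 10 partners passed the filter, with a median log2 fold change of 0.15 (0.00 over all genes). Cd55 and Thy1, which Adgre5 binds, were named after their values were seen and are described without a test. Cd55 was at 13.7 ± 4.25 CPM in WT and 50.7 ± 11.4 CPM in UREΔ, and Thy1 at 2.81 ± 1.05 and 0.138 ± 0.183 CPM (SD, n = 4 each).
Of 17 G proteins and other transducers, 16 were tested in GMPs, with 2 called higher and 0 lower, beside the same shares of all genes. These were Gnai3, an inhibitory G protein subunit (log2 fold change 0.82, SE 0.18, adjusted p = 0.0232, same test), and Gna12, a G protein subunit to which several of these receptors couple (0.81, SE 0.21, adjusted p = 0.0423, same test). The median log2 fold change over the 16 genes was 0.09, against 0.01 over all genes tested.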

How the data were processed

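Low-input RNA-seq of LSKs and GMPs was analysed in 16 libraries, 4 per group, grouped by the sample labels. The authors quantified the reads with salmon against GRCm38 (version and annotation release not given in the sources used here), aggregated them to genes with tximport and deposited estimated counts, which are whole numbers without normalization. Amplified copies count like separate molecules, since there are no molecular identifiers. No pair of replicates was near-identical (chi-square per degree of freedom at least 32.6).

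Gene models came from GENCODE M21 (54094 of 54347 identifiers matched). Counts were TMM-normalized and filtered with filterByExpr in edgeR 4.0.16 (limma 3.58.1, R 4.3.3), and each pair of groups was tested by the quasi-likelihood test with Benjamini-Hochberg adjustment. Standard errors were derived from the fold change and the F statistic. CPM used one TMM scaling of all 16 libraries, and log2 CPM a prior count of 2. The member removed by the filter was compared by exact permutation in GMPs. A test of the procedure on simulated data is not reported here, and no result rests on it. The alternatives were DESeq2 1.42.0, RLE size factors, other filters (none, or 50 counts in 4 libraries), a joint fit, the replicate number as a block, no fold change minimum and leaving out each library. Fits within replicates 1 and 4 and within replicates 2 and 3 were chosen once the values were known.

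The labels number the replicates from 1 to 4 in each group without saying what a number stands for. Deviations from the group means of same-numbered libraries correlated over 9072 genes with r of 0.447 to 0.839 between genotypes in LSKs, 0.333 to 0.789 in GMPs, and 0.588 to 0.925 (WT) and 0.598 to 0.802 (UREΔ) between cell types. All were above 0.1, so the numbers were taken to pair the samples, although some libraries with different numbers correlated too, up to 0.669 in LSKs, 0.667 in GMPs, 0.535 (WT) and 0.639 (UREΔ). The main fits did not use this pairing, which entered only the counts and ratios of pairs and the alternative with a block.

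The genes named were all members, Spi1, the 2 other family genes with the highest CPM averaged over the 16 libraries, partner and transducer genes called in GMPs, and the 5 genes most like Adgrl4 and Adgrg1 (4 for Adgre5). Cd55 and Thy1 (ligands of Adgre5), Ddx39 (shared exonic bases), Adgrf3 and single marker genes stand outside this rule and were named after their values were seen. 1 of the listed receptors, and 1 gene named by the rule, are not reported here. Members and lists were chosen with earlier results of these data known. Promoter sequences are from RefSeq (GRCm38.p6). Plots were drawn with matplotlib 3.10.9.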

Additional observations from a re-analysis of the deposited data

Results flagged for a closer look

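In 36 groups of 4 libraries (9 receptors in 4 groups), the highest or lowest library was compared with the others by Dixon's ratio of its gap to the range at the 95% critical value. The value was exceeded in 2 groups, and chance alone exceeds it in about 5% of groups. Adgre4 in WT GMPs was at 10.5 CPM in replicate 2, against 3.58 to 4.26 CPM in the other 3 libraries. Without that library the log2 difference of Adgre4 between WT GMPs and WT LSKs was −0.08 in place of 0.34. Adgrg6 in UREΔ GMPs was at 1.41 CPM in replicate 2, from 28 counts, against 2 counts in each of the other 3 libraries. Without it the log2 CPM difference of Adgrg6 between the genotypes in GMPs was −0.62 in place of 0.13.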

How the results depend on the processing

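Alternatives to the fits of the 9 receptors gave 523 values. Of 351 with a test, 296 kept direction and side of the threshold and 20 turned in direction. Of 172 described without a test, 6 turned in direction. Fits within replicates 2 and 3 alone, with 2 libraries against 2, called 1 member in LSKs, 0 in GMPs (5 at an unadjusted p under 0.05, and 5 called by DESeq2 in all libraries), 1 between WT cell types and 0 between UREΔ cell types (2 at an unadjusted p under 0.05, edgeR). Within replicates 1 and 4, 2 members were called between UREΔ cell types. With the replicate number as a block, the count between UREΔ cell types was 3 in place of 1, and Adgrg1 passed between the cell types of both genotypes. The block changed no other call in the tested comparisons. Leaving out 1 library at a time gave 2 to 4 called members between the genotypes in GMPs and 0 to 1 between UREΔ cell types.

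The directions that turned were these. In LSKs, Adgre5 was −0.23 to 0.44 without 1 library and −0.67 within replicates 1 and 4, and Adgrg1 was −0.056 to 0.73 without 1 library. Adgrl1 in GMPs (log2 fold change 0.0041) was −0.0054 with DESeq2, −0.0055 with RLE size factors, −0.13 with the replicate block and −0.026 within replicates 2 and 3, and −0.45 to 0.21 without 1 library. Between WT cell types, Adgrl1 was −0.016 with the filter of 50 counts and −0.093 to 0.23 without 1 library, Adgre4 ranged from −0.084 to 0.61 without 1 library, and Adgre5 was 0.15 with the replicate block, 0.62 within replicates 2 and 3 and −0.40 to 0.31 without 1 library. The log2 CPM difference of Adgrg6 in GMPs ranged without 1 library from −0.62 to 0.39. The cause of these changes was not tested. With 0 to 28 counts per library, depth limits what can be said on Adgrg6.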

Other observations

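Celsr3, an adhesion receptor outside the chosen set, was higher in GMPs than in LSKs of both genotypes. It was at 0.0335 to 0.458 CPM in the 8 LSK libraries and at 0.871 to 63.4 CPM in the 8 GMP libraries. It passed the filter on low counts in these comparisons through the GMP libraries alone, so no test is given. Its level varied widely within the GMP groups, with 38.6, 11.0, 1.51 and 63.4 CPM in UREΔ replicates 1 to 4 and 14.5, 7.93, 0.871 and 3.18 CPM in WT.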
